A study of Mus musculus with 24 samples.

Results

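Tight junction genes were followed across all 24 arrays of a mouse colon study: the claudins Cldn1, Cldn2, Cldn3, Cldn4, Cldn7, Cldn8, Cldn15 and Cldn23, occludin (Ocln) and zonula occludens-1 (Tjp1). These 10 genes were chosen by name as a junction set of the colon, with earlier results of these data known. A probe belonged to a gene when its RefSeq accession carried that gene's symbol. They were measured by 12 of the 56605 probes, against 22911 gene symbols in all, with a pair of probes each for Cldn2 and Tjp1 and a single probe for the others. The groups were male (M), female (F) and ovariectomized female (F(OVX)) C57BL/6J mice, bought at 7 weeks of age and fed for 14 weeks on diets with 10 kcal% of fat (low-fat diet, LFD) or 45 kcal% of fat (high-fat diet, HFD), with 4 arrays in each of the 6 groups. Every mouse received a single injection of azoxymethane (AOM, a colon carcinogen, 10 mg/kg) and 3 cycles of 5 days of 1.5% dextran sulfate sodium (DSS, which injures the colonic epithelium), so none of the groups was free of tumour induction, and the M and F mice had a sham operation. Colon RNA was taken 75 days after AOM and hybridized to 1-color Agilent arrays, 1 array per sample.

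Tight junctions seal the space between neighbouring epithelial cells. Claudins are membrane proteins that pair across that space; some, such as Cldn1 and Cldn3, tighten it, while Cldn2 and Cldn15 form channels for small cations. Occludin is a further membrane protein of the junction, and Tjp1 is the cytoplasmic scaffold that ties claudins and occludin to actin.

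Promoter sequences are shown for 4 members, because Cldn3, Cldn4 and Cldn7 varied together over the arrays and Cldn15 did not. Each covers 250 bases before to 50 bases after the annotated start of transcription (RefSeq, GRCm38.p6), 5′ to 3′. Capitals mark matches, on either strand, to an E-box (CAGGTG), a GC box (GGGCGG) or an AP-1 site (TGANTCA), and matches shared no bases. The windows lie at chr5:134946885-134947184, minus strand for Cldn4, at chr5:134985964-134986263, plus strand for Cldn3, at chr11:69965171-69965470, plus strand for the second of the pair of annotated starts of Cldn7, and at chr5:136967619-136967918, plus strand for Cldn15.
Cldn3: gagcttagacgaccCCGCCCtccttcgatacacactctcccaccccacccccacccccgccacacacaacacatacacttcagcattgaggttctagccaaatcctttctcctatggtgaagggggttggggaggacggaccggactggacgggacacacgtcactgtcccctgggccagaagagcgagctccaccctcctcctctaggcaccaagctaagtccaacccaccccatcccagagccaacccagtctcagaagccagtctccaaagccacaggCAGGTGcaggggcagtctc
Cldn4: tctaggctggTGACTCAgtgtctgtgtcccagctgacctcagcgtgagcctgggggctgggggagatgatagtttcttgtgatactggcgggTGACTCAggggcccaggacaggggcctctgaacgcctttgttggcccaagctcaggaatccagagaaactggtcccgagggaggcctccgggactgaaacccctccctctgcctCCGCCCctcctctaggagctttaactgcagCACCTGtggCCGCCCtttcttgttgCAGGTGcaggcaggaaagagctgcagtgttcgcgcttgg
Cldn7: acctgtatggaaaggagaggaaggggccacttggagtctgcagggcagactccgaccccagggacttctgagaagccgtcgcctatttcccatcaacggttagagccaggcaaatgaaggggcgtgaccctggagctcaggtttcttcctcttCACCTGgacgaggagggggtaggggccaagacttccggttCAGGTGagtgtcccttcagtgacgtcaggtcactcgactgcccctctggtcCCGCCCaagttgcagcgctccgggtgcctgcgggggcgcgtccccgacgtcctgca
Cldn15: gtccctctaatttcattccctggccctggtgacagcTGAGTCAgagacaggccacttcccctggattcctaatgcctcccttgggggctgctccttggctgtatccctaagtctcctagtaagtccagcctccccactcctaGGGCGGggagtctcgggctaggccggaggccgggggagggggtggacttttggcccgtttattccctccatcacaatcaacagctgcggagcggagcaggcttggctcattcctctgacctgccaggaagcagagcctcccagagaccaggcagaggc
Cldn3 and Cldn4 are neighbours on chromosome 5, with 0 annotated genes between them. Of the 8 members with a promoter in the table, 4 held the E-box (Cldn3, Cldn4, Cldn7 and Ocln), against 20.2% of all 32851 promoters of that length. Cldn7 and Ocln had a pair of windows each and counted if either matched, while the shares of all promoters count each window alone. Member counts and these shares are therefore not like for like. The Cldn7 window that is not printed held none of the motifs marked in capitals. The member windows held 51.3% to 68.0% G and C, beside a median of 52.7% over all promoters. The GC box was found in 7 of 8 (35.7% of all promoters) and the AP-1 site in 2 of 8, Cldn4 and Cldn15 (7.81%). The TATA box (TATAAA, 13.6%) and the CDX site (TTTATG, 11.9%) were each found only in the Cldn2 promoter among the 8. Cldn8 and Cldn23 were not in the promoter table. A match is a description of the letters and no evidence of binding.

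Values are log2 signals, quantile-normalized over the arrays, of the brightest probe of each gene, and means carry the SD with n = 4. The signal of a probe depends on its sequence, so levels of different genes were not compared. Slide and sex or surgery cannot be told apart: all M arrays lay on 1 slide, all F arrays on another and all F(OVX) arrays on the third, with every LFD array in the first row of its slide and every HFD array in the second, so the row cannot be told apart from diet. On every slide the column followed the replicate number, so same-numbered arrays of a slide also shared a column. The 75th percentile of the signal ran from 125 to 669 and the share of spots well above background from 40.5% to 61.9%. Intestinal epithelial markers were high on every array (Epcam 12.38 to 13.59). In 5 arrays something stood apart: M + LFD replicates 1 and 2 had Hoxb13, a homeobox gene of the most distal colon, at 2.18 and 5.04 against 12.58 to 14.79 on the other 22 arrays; F + LFD replicate 3 had a summed squamous epithelial signal of 16.36 against 11.14 to 12.39 elsewhere, though Ivl and Krt1 were not well above background there or on any array; the lowest signals were 125 on F(OVX) + LFD replicate 3 and 157 on F + HFD replicate 2. In this bulk RNA fewer cells of a type and less RNA per cell cannot be told apart.

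Every member was detected on most arrays. Of the 10 genes, 8 were well above background on all 24 arrays, Cldn1 was on 23 (not on F(OVX) + HFD replicate 2) and Cldn4 on 21 (not on M + LFD replicate 3, F + HFD replicate 2 or F(OVX) + LFD replicate 3), and all 10 passed the filter in each comparison. The members differed in how far they moved between arrays. Cldn4 spanned 4.78 on the log2 scale (4.46 to 9.23) and Cldn1 spanned 4.48 (3.57 to 8.05). These ranges were larger than those of 99.1% and 98.9% of 16836 genes or unnamed transcripts well above background on all 24 arrays. Cldn4 and Cldn1 did not meet that condition themselves, so the ranks set dimmer genes against brighter ones. The lowest Cldn1 value was on the array where it was not above background. Cldn15, Cldn8 and Cldn23 spanned 2.54, 2.40 and 2.32. Cldn2 spanned 1.43, Ocln 1.41, Cldn7 1.08, Tjp1 1.01 and Cldn3 0.91. Most of that spread lay between arrays of the same group: the SD within groups was 1.26 for Cldn4 and 0.98 for Cldn1, close to the SD over all arrays of 1.26 and 1.04.

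**Figure D1:**
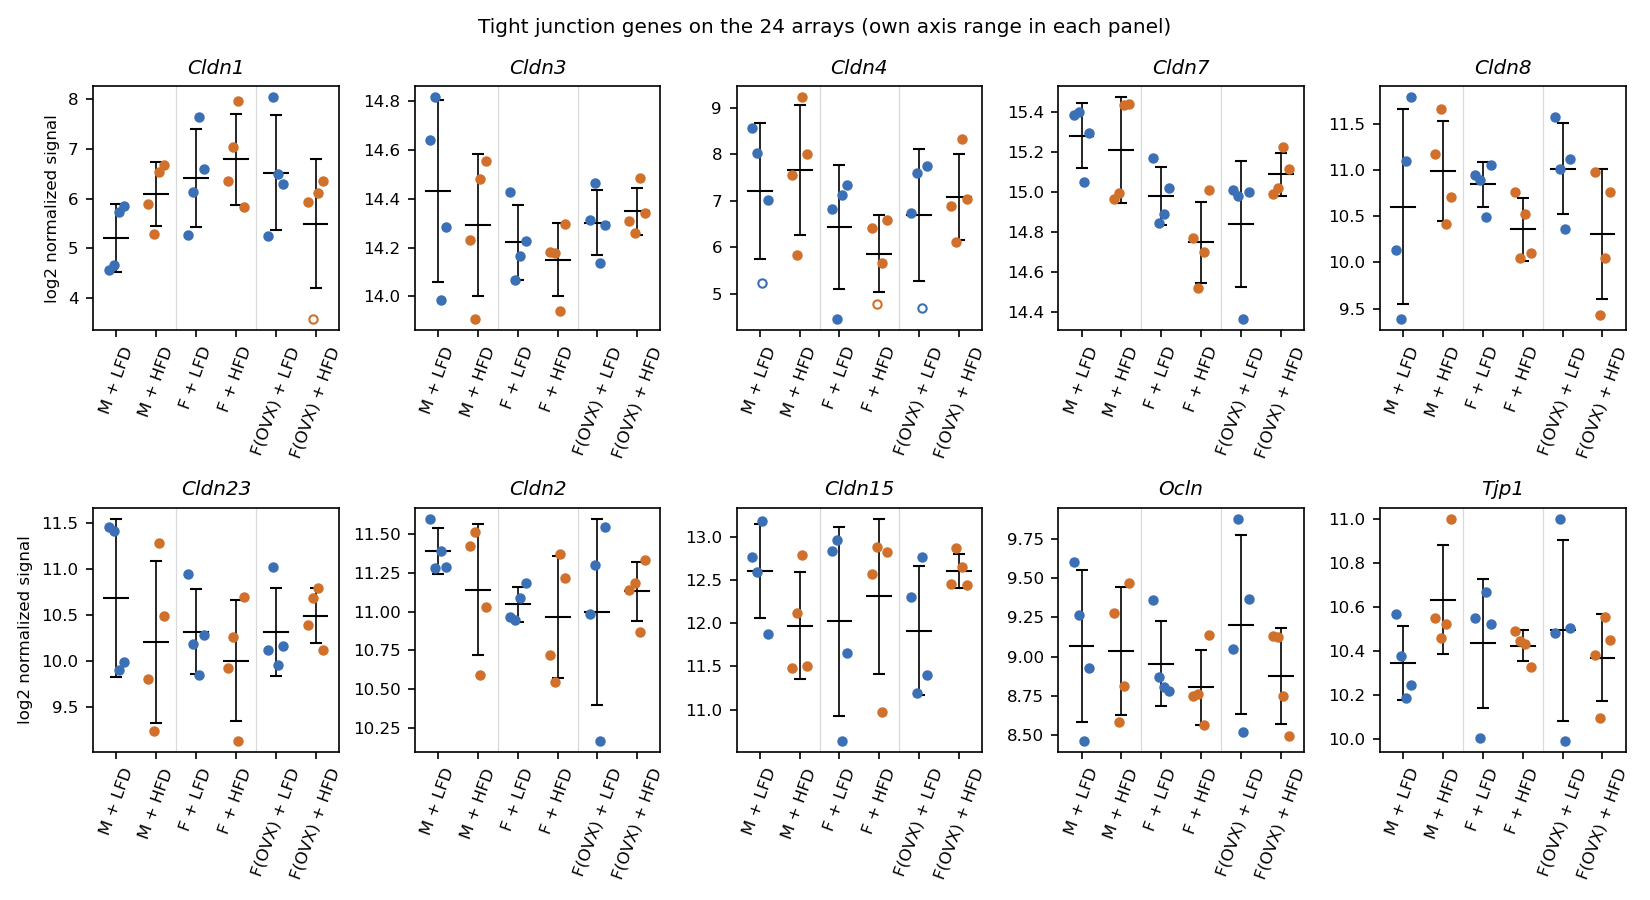
Log2 normalized signal of each member (vertical axis, own range in each panel) on the 4 arrays of each group (horizontal axis; blue LFD, orange HFD). Horizontal bars are means, whiskers are SD, and open points were not well above background. Groups overlap in nearly every panel, and Cldn1 and Cldn4 spread over more than 4 log2 units.

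Diet was compared first, in each of M, F and F(OVX). A gene was called at a fold change of at least 1.5 with an unadjusted limma p under 0.05, the thresholds named in the methods. By that rule 0 of 10 members were called in M, where 4.3% of all genes tested were called. In F 0 of 10 were called, against 1.2% of all genes, and in F(OVX) 0 of 10, against 2.19%. At an unadjusted p under 0.05 without the fold limit, 0 of 10 members passed in M (6.1% of all genes), 1 of 10 in F (2.91%), which was Cldn8, and 0 of 10 in F(OVX) (3.69%). Same-numbered F arrays correlated, though no label pairs them. With the replicate number as a block, 586 genes were called in F in place of 264, 0 of 10 members were called and Cldn8 no longer passed. No gene of the array passed an adjusted p of 0.05 by limma in any of the 3 diet comparisons, while 1251, 643 and 709 genes had an unadjusted p under 0.05 in M, F and F(OVX). The median difference over the 10 members was -0.05 in M, -0.12 in F and 0.09 in F(OVX), beside medians over all genes of 0.01, -0.00 and 0.01. With 4 arrays against 4 the smallest exact permutation p is 0.0286, and no member reached it in a diet comparison.

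**Figure D2:**
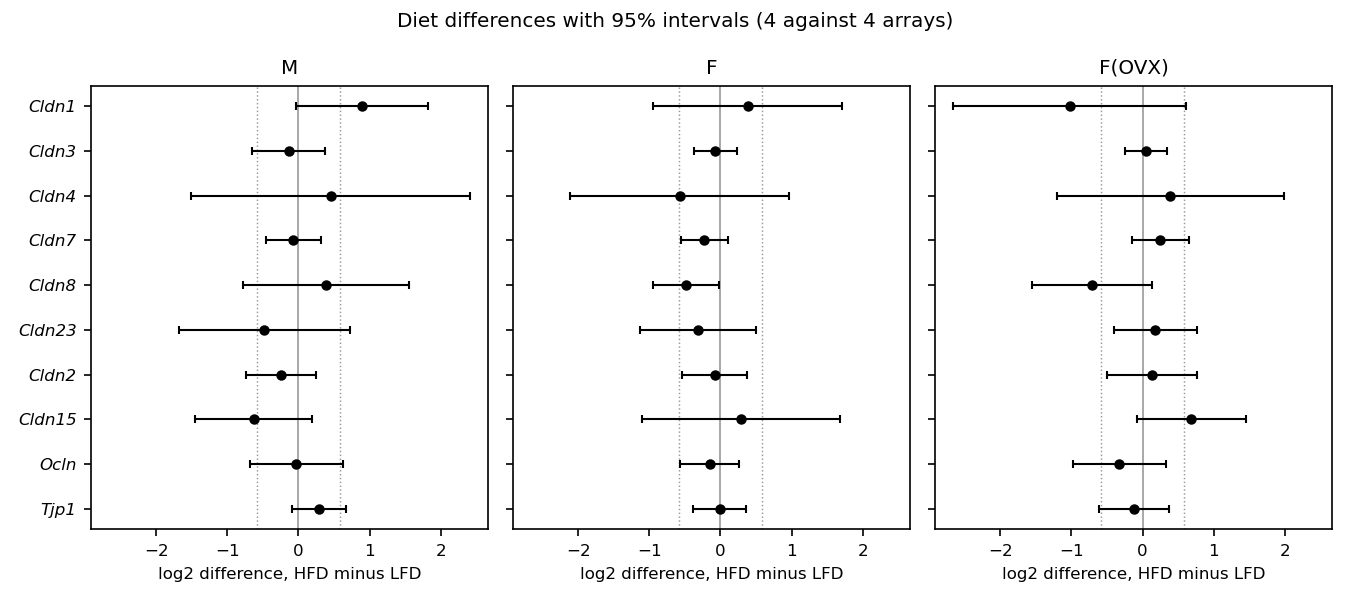
Difference in log2 normalized signal between HFD and LFD (horizontal axis) for the 10 members in M, F and F(OVX). Points are limma estimates from 4 against 4 arrays, bars are 95% intervals, and dotted lines mark a fold change of 1.5 in either direction. The interval of Cldn8 in F is the only one that leaves out 0.

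Among the sealing claudins, Cldn1 had the largest diet difference in M and in F(OVX), of opposite sign and neither called. In M it measured 4.56, 4.67, 5.72 and 5.86 on LFD and 5.89, 5.28, 6.54 and 6.68 on HFD. In F it measured 5.26, 6.13, 7.65 and 6.59 on LFD and 6.35, 7.03, 7.96 and 5.82 on HFD, and in F(OVX) 5.24, 8.05, 6.51 and 6.29 on LFD and 5.94, 3.57, 6.12 and 6.36 on HFD. The LFD and HFD arrays overlapped in all 3. HFD minus LFD was 0.90 in M (95% interval -0.04 to 1.83, limma p = 0.0575, adjusted p = 0.806, exact permutation p = 0.114), 0.38 in F (-0.95 to 1.72) and -1.02 in F(OVX) (-2.66 to 0.62). The value in M depended on single arrays: it passed the call when M + LFD replicate 3 (1.07) or 4 (1.11) or M + HFD replicate 2 (1.17) was left out, and with each array scaled to its 75th percentile (0.91). Both low M + LFD values were those of the arrays with low Hoxb13, and without that pair the difference was 0.31, short of the fold limit. The F(OVX) difference included F(OVX) + HFD replicate 2, where Cldn1 was not above background; it was -0.38 without that array and -0.51 without F(OVX) + LFD replicate 2. With normexp background correction the differences were 0.36 in M and -0.48 in F(OVX).

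Cldn8, a claudin of the distal colon and kidney that lowers cation passage, had a lower mean on HFD in both female groups, short of the call. In F it measured 10.95, 10.89, 10.49 and 11.05 on LFD and 10.76, 10.05, 10.52 and 10.11 on HFD. In F(OVX) it measured 11.57, 11.01, 10.36 and 11.12 on LFD and 10.98, 9.43, 10.05 and 10.76 on HFD. In each, 1 LFD array lay among the HFD arrays. The difference was -0.49 in F (95% interval -0.95 to -0.02, limma p = 0.0416, adjusted p = 0.991, exact permutation p = 0.0857), under the fold limit, and -0.71 in F(OVX) (-1.55 to 0.13, p = 0.0894, adjusted p = 0.9996, exact permutation p = 0.143). Cldn8 passed the call in F without F + LFD replicate 3 (-0.61), the array with squamous signal, and without F + HFD replicate 1 (-0.62). It passed in F(OVX) without F(OVX) + LFD replicate 3 (-0.93), the array with the lowest signal, and without F(OVX) + HFD replicate 1 (-0.93). In M it measured 10.13, 9.39, 11.10 and 11.79 on LFD and 11.17, 11.66, 10.42 and 10.71 on HFD, a difference of 0.39 (-0.78 to 1.55). The pair of lowest M + LFD values came from the arrays with low Hoxb13, and without them the M difference was -0.46. Smooth muscle markers were measured beside it: all 8 had a higher mean on HFD in F and in F(OVX), with medians of 0.50 and 0.76, and Actg2, Tagln, Cnn1 and Des were called higher in F(OVX). Their summed signal ran from 16.22 to 18.02 on F + LFD and 17.11 to 17.61 on F + HFD, and from 15.45 to 16.66 and 16.55 to 17.69 on the F(OVX) arrays. Their part in the Cldn8 values was not tested.

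Cldn4 was the most variable member and had no called diet difference. In M it measured 8.56, 8.02, 5.23 and 7.02 on LFD and 7.56, 5.84, 9.23 and 8.01 on HFD. In F it measured 6.82, 4.46, 7.13 and 7.33 on LFD and 6.41, 4.78, 5.67 and 6.60 on HFD, and in F(OVX) 6.75, 7.61, 4.68 and 7.76 on LFD and 6.88, 6.11, 8.34 and 7.03 on HFD. In 4 of the 6 groups the lowest array lay between 4.46 and 5.23. The differences were 0.45 in M (95% interval -1.51 to 2.41), -0.57 in F (-2.11 to 0.97) and 0.39 in F(OVX) (-1.20 to 1.99), and each interval held a change of 1.5-fold in either direction. Without F + LFD replicate 2, the lowest Cldn4 value of all, the F difference passed the call (-1.23). Without M + LFD replicates 1 and 2 the M difference was 1.54 and not called.

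Cldn3, Cldn7 and Cldn23 had no called diet difference. Cldn3, a tightening claudin spread throughout the gut, differed by -0.14 in M (95% interval -0.65 to 0.38), -0.07 in F (-0.38 to 0.23) and 0.05 in F(OVX) (-0.25 to 0.34), so that in F and F(OVX) a change of 1.5-fold (0.585 on the log2 scale) lay outside the interval. Cldn7, which is also found along the lateral membrane and helps anchor the epithelium, differed by -0.07 in M (-0.46 to 0.32), -0.23 in F (-0.56 to 0.10) and 0.25 in F(OVX) (-0.15 to 0.65). Its F(OVX) + LFD mean of 14.84 ± 0.32 held 1 far array, replicate 3 at 14.37 beside 14.98 to 15.01, which was the array with the lowest signal. With each array scaled to its 75th percentile in place of quantile normalization, the differences in F came out at 0.18 for Cldn3 and 0.07 for Cldn7, the other side of 0. Cldn23 differed by -0.48 in M, -0.31 in F and 0.18 in F(OVX), with exact permutation p of 0.429, 0.486 and 0.571.

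Of the channel-forming claudins, Cldn15 had the wider spread. Cldn15, which carries sodium across the intestinal epithelium, measured 12.77, 12.59, 13.18 and 11.88 on M + LFD and 11.48, 12.12, 12.79 and 11.51 on M + HFD. On F + LFD it measured 12.84, 12.96, 10.64 and 11.65 and on F + HFD 12.57, 12.88, 10.98 and 12.82, and on F(OVX) + LFD 12.30, 11.19, 12.77 and 11.40 against 12.46, 12.87, 12.65 and 12.44 on F(OVX) + HFD. The F(OVX) + HFD arrays lay between 12.44 and 12.87, whereas the F + LFD arrays lay between 10.64 and 12.96. The 10.64 came from F + LFD replicate 3, the array with squamous signal. HFD minus LFD was -0.63 in M (95% interval -1.46 to 0.20, limma p = 0.118, exact permutation p = 0.200), 0.29 in F (-1.11 to 1.68) and 0.69 in F(OVX) (-0.07 to 1.45, limma p = 0.0712, exact permutation p = 0.143). It passed the call in M without M + LFD replicate 4 (-0.87) or M + HFD replicate 3 (-0.90), and in F(OVX) without F(OVX) + LFD replicate 3 (0.97). Cldn2, a channel for cations and water, differed by -0.25 in M, -0.08 in F and 0.13 in F(OVX). Its second, dimmer probe differed by -0.16, 0.02 and 0.05.

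Ocln and Tjp1 had no called diet difference. Ocln differed by -0.03 in M (95% interval -0.69 to 0.62), -0.15 in F (-0.57 to 0.27) and -0.33 in F(OVX) (-0.98 to 0.33). Tjp1 differed by 0.29 in M (-0.09 to 0.67), -0.01 in F (-0.38 to 0.36) and -0.12 in F(OVX) (-0.62 to 0.37). The second Tjp1 probe gave 0.16, -0.39 and -0.05.

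Whether the diet difference itself depended on sex or ovariectomy was tested in a single limma fit of all 24 arrays. By the same rule 0 of 10 members were called for M minus F, where 2.95% of all genes were called. For F(OVX) minus F 0 of 10 were called, against 1.52%, and for M minus F(OVX) 0 of 10, against 6.16%; no gene passed an adjusted p of 0.05 in any of the 3, with 788, 475 and 1660 genes at an unadjusted p under 0.05. For M minus F(OVX), Cldn1 gave 1.92 (95% interval -0.00 to 3.84, limma p = 0.0504, adjusted p = 0.674, exact permutation p = 0.0604) and Cldn15 gave -1.32 (-2.78 to 0.14, limma p = 0.0740, adjusted p = 0.721, exact permutation p = 0.0327), each from diet differences of opposite sign in M and F(OVX). Cldn1 passed the call, at 2.07 to 2.35, when any one of M + LFD replicates 3 and 4, M + HFD replicate 2, F(OVX) + LFD replicate 1 and F(OVX) + HFD replicates 1, 3 and 4 was left out, and at 1.91 with each array scaled to its 75th percentile. It was 1.28 without F(OVX) + HFD replicate 2 and 0.83 with normexp, neither of them called. Without M + LFD replicates 1 and 2 Cldn1 gave 1.33 and Cldn15 -1.25, neither of them called. Cldn15 passed without M + LFD replicate 4 (-1.56), M + HFD replicate 3 (-1.59) or F(OVX) + LFD replicate 3 (-1.60).

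Cldn8 gave 1.095 for M minus F(OVX) (95% interval -0.14 to 2.33, adjusted p = 0.734, exact permutation p = 0.147). It passed at 1.28 to 1.49 without any one of M + LFD replicate 4, M + HFD replicate 3, F(OVX) + LFD replicate 3 and F(OVX) + HFD replicate 1, and was 0.25 without M + LFD replicates 1 and 2. For M minus F, Cldn8 gave 0.87 (exact permutation p = 0.172) and passed without M + LFD replicate 4 (1.27), and was 0.03 without M + LFD replicates 1 and 2. For F(OVX) minus F, Cldn7 gave 0.48 (0.01 to 0.95, limma p = 0.0445, adjusted p = 0.9998, exact permutation p = 0.0200), under the fold limit. With each array scaled to its 75th percentile it gave 0.09. Beside Cldn7, all 12 intestinal epithelial markers had a higher diet difference in F(OVX) than in F, with a median of 0.18. Their summed signal was 18.30 to 18.78 on F(OVX) + LFD and 18.69 to 18.83 on F(OVX) + HFD, and 18.50 to 18.79 on F + LFD and 18.48 to 18.69 on F + HFD. Their part in the Cldn7 value was not tested.

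The levels in M and F(OVX) were then set against F on the same diet. These comparisons run between slides, and the M and F(OVX) comparisons share the F arrays. On LFD, 1 of 10 members was called between M and F, against 4.24% of all genes: Cldn1, which was lower in M. Its means were 5.20 ± 0.68 in M and 6.41 ± 0.99 in F, a difference of -1.21 (95% interval -2.40 to -0.01, limma p = 0.0484, adjusted p = 0.605, exact permutation p = 0.114), or 2.31-fold. The call was lost without M + LFD replicate 1 (-0.99) or 2 (-1.03) and without F + LFD replicate 2 (-1.30), 3 (-0.80) or 4 (-1.15). Without M + LFD replicates 1 and 2 together, the arrays with low Hoxb13, the difference was -0.62 and not called. It was also lost with 75th-percentile scaling (-1.16), with normexp background correction (-0.57) and without the 5 arrays that stood apart (-0.21).

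Cldn2 separated M from F on LFD. Its M values of 11.60, 11.28, 11.39 and 11.28 all lay above the F values of 10.96, 10.94, 11.09 and 11.19, and 5.88% of all genes had groups that did not overlap in this comparison. The difference of 0.34 (95% interval 0.05 to 0.64, limma p = 0.0283, adjusted p = 0.554, exact permutation p = 0.0286) was under the fold limit. The second Cldn2 probe gave 0.59 (limma p = 0.0121, exact permutation p = 0.0571) and passed the rule. Without M + LFD replicates 1 and 2 the first probe gave 0.29 and the second 0.48, under the fold limit, and the second was also under it with 75th-percentile scaling (0.58) and normexp (0.27). On HFD the Cldn2 difference between M and F was 0.18 (exact permutation p = 0.543).

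On HFD, Cldn4 was called higher in M than in F (1 of 10 members, against 8.12% of all genes). It was also called higher in F(OVX) than in F (1 of 10, against 3.1%). The means were 7.66 ± 1.41 in M, 7.09 ± 0.93 in F(OVX) and 5.86 ± 0.83 in F. The difference was 1.80 for M (95% interval 0.24 to 3.35, limma p = 0.0284, adjusted p = 0.323, exact permutation p = 0.0857), or 3.48-fold, and 1.23 for F(OVX) (0.04 to 2.41, limma p = 0.0439, adjusted p = 0.659, exact permutation p = 0.114), or 2.34-fold. At least 1 array of M and of F(OVX) lay within the F range. Cldn4 was well above background on all 4 M and all 4 F(OVX) arrays and on 3 of the 4 F arrays, so it entered both comparisons through the group where it was higher, and both folds include the F value of 4.78 that was not above background. The M call was lost without M + HFD replicate 3 (1.27) or 4 (1.68) and without F + HFD replicate 2 (1.44) or 3 (1.73). The F(OVX) call was lost without F + HFD replicate 2 (0.87) or 3 (1.16) and without F(OVX) + HFD replicate 1 (1.30), 3 (0.81) or 4 (1.25). The 75th percentile of the array signal was 336, 157, 505 and 428 on the F + HFD arrays and 473 to 621 on the M + HFD arrays. The F(OVX) + HFD arrays had 313 to 472. Both calls were lost without F + HFD replicate 2, the array of lowest signal among these, and both held with 75th-percentile scaling (1.87 and 1.26) and with normexp background correction (1.27 and 0.78).

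Cldn7 lay beside Cldn4 in these comparisons without passing the fold limit. On HFD it measured 14.97, 14.99, 15.44 and 15.44 in M, 14.77, 14.52, 14.70 and 15.01 in F and 14.99, 15.02, 15.22 and 15.12 in F(OVX). Only F + HFD replicate 4 reached into the range of the others. M minus F was 0.46 (limma p = 0.0296, exact permutation p = 0.0857) and F(OVX) minus F was 0.34 (limma p = 0.0354, exact permutation p = 0.0571). With 75th-percentile scaling they were 0.33 and 0.18. All 12 intestinal epithelial markers had a higher mean in F(OVX) than in F on HFD and 10 of 12 in M; their summed signal was 18.48 to 18.69 in F, 18.59 to 18.93 in M and 18.69 to 18.83 in F(OVX), and its part in the Cldn4 and Cldn7 values was not tested. The pair of Tjp1 probes disagreed here: F(OVX) minus F on HFD was -0.05 for the brighter and 0.57 for the dimmer (limma p = 0.00894, exact permutation p = 0.0286), which did not reach the fold limit.

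Cldn8 and Cldn15 passed the call between M and F on HFD only when single arrays were left out. Cldn8 differed by 0.63 (exact permutation p = 0.143) and passed without M + HFD replicate 3 (0.82) or F + HFD replicate 1 (0.76). Cldn15 passed without F + HFD replicate 3 (-0.78), the array on which it was far below its group. Cldn23 passed between F(OVX) and F on HFD without F + HFD replicate 4 (0.72). On LFD 0 of 10 members were called between F(OVX) and F, against 1.92% of all genes, and their differences ran from -0.14 (Cldn7) to 0.26 (Cldn4). Over all 4 comparisons between slides, 17 genes passed an adjusted p of 0.05 for M against F on LFD and 11 on HFD, with no member among them.

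How the members varied with each other was described by Pearson's r and Spearman's rho for the 45 pairs, with permutation p-values adjusted over the pairs. Arrays were permuted freely over groups and slides, so shifts between groups or slides can add to these r and p-values. Over the 22 arrays without M + LFD replicates 1 and 2, Cldn3 ran with Cldn23 (r = 0.83, adjusted permutation p = 0.00045; rho = 0.77, adjusted p = 0.00105) and with Cldn4 (r = 0.75, adjusted permutation p = 0.00105; rho = 0.75, adjusted p = 0.00105). Cldn4 ran with Cldn7 (r = 0.75, adjusted permutation p = 0.00105; rho = 0.58, adjusted p = 0.0400) and with Tjp1 (r = 0.66, adjusted permutation p = 0.0100; rho = 0.78, adjusted p = 0.00105), and Cldn3 ran with Cldn7 (r = 0.61, adjusted permutation p = 0.0181; rho = 0.66, adjusted p = 0.0138). Without the 2 arrays farthest from the median on the first gene these r were 0.72, 0.78, 0.73, 0.65 and 0.65. Cldn15 ran opposite to Tjp1 (r = -0.60, adjusted permutation p = 0.0206; rho = -0.57, adjusted p = 0.0407). Cldn15 also ran opposite to Cldn1 by r (r = -0.58, adjusted permutation p = 0.0216) and not by rho (rho = -0.46, adjusted p = 0.0978). Both of these Cldn15 relations include F + LFD replicate 3, the array with squamous signal and the lowest Cldn15 value. Without the 2 arrays farthest from the median on Cldn15, its r with Tjp1 was -0.66. Cldn3 ran with Ocln too (r = 0.62, adjusted permutation p = 0.0181; rho = 0.57, adjusted p = 0.0407). Ocln and Tjp1, a membrane protein and a scaffold of the junction, gave r = 0.56 (adjusted permutation p = 0.0367), which was 0.20 without the 2 farthest arrays and so rested on them. In all, 11 of 45 pairs passed an adjusted p of 0.05 by r over the 22 arrays and 14 over all 24.

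Within slides Ocln and Tjp1 gave an r of 0.63 in M, -0.00 in F and 0.66 in F(OVX), and the other pairs named above kept their sign, while none of the 45 passed an adjusted p of 0.05 on 8 arrays alone; the M values include the pair of arrays with low Hoxb13. The r of Cldn3 with Cldn23 was 0.90 in M, 0.91 in F and 0.74 in F(OVX), and that of Cldn3 with Cldn4 was 0.82, 0.52 and 0.88. Cldn4 with Cldn7 gave 0.76, 0.68 and 0.85, and Cldn15 with Tjp1 gave -0.53, -0.54 and -0.79. In total 15 pairs were above 0 on each slide, 5 below 0 on each, and 25 were mixed. All 5 pairs below 0 throughout included Cldn15. Cldn3 and Cldn4, whose promoters are printed above, were the neighbours on chromosome 5, and Cldn23 lies elsewhere.

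**Figure D3:**
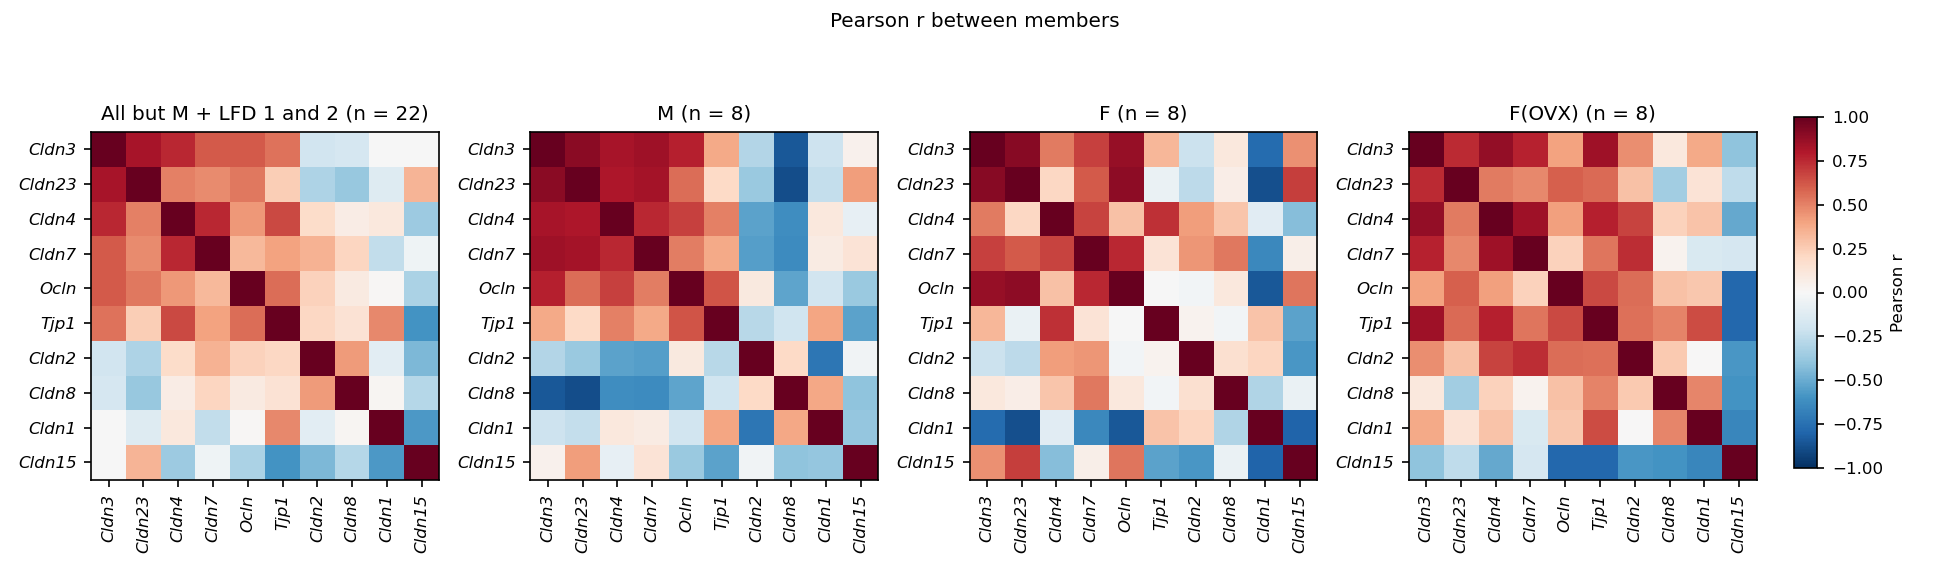
Pearson r between the log2 normalized signals of each pair of members (both axes list the 10 genes; red above 0, blue below 0) over 22 arrays and within the 8 arrays of M, F and F(OVX). The block of Cldn3, Cldn23, Cldn4 and Cldn7 is red in each panel, and Cldn15 is blue against Tjp1 in each.

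The members were also set beside the marker levels and the signal of each array, in 40 relations with permutation p-values adjusted over them. Arrays were again permuted freely over groups and slides. Over the 22 arrays Cldn7 (r = 0.81, adjusted permutation p = 0.0004; rho = 0.75), Cldn4 (r = 0.64, adjusted permutation p = 0.0149; rho = 0.48), Cldn3 (r = 0.62, adjusted permutation p = 0.0166; rho = 0.68) and Cldn23 (r = 0.54, adjusted permutation p = 0.0391; rho = 0.47) ran with the summed signal of the 12 intestinal epithelial markers. Without the 2 arrays of most extreme marker signal r was 0.66, 0.42, 0.62 and 0.46. Only Cldn7 and Cldn3 passed by both r and rho. Cldn7 also ran with the array's signal level (75th percentile, r = 0.73, adjusted permutation p = 0.00500; rho = 0.39), as did Cldn2 (r = 0.62, adjusted permutation p = 0.0237; rho = 0.29) and Cldn4 (r = 0.58, adjusted permutation p = 0.0237; rho = 0.49). These fell to 0.35, 0.06 and 0.32 without the 2 arrays of most extreme signal, so they rest on those arrays. Cldn15 ran opposite to Hoxb13 (r = -0.69, adjusted permutation p = 0.00573; rho = -0.75), with r of -0.46 in M, -0.81 in F and -0.60 in F(OVX). Cldn1 ran with Hoxb13 (r = 0.55, adjusted permutation p = 0.0391; rho = 0.36, not passing), and its r was 0.24 without the 2 arrays of most extreme Hoxb13. Within the slides r was 0.79 in M, 0.90 in F and 0.67 in F(OVX), and without the 2 most extreme arrays of each slide -0.30, 0.86 and 0.04, so the M and F(OVX) values rest on those arrays. Cldn8 ran opposite to the summed smooth muscle markers (r = -0.52, adjusted permutation p = 0.0478; rho = -0.53, adjusted p = 0.0998), with -0.35, -0.55 and -0.54 within the slides. By r, 10 of the 40 relations passed an adjusted p of 0.05 over the 22 arrays. Within slides, on 8 arrays each, 5 of 40 passed in M, 0 in F and 0 in F(OVX), and the M arrays include the pair with low Hoxb13. Which of these measures, if any, sets the others was not tested.

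**Figure D4:**
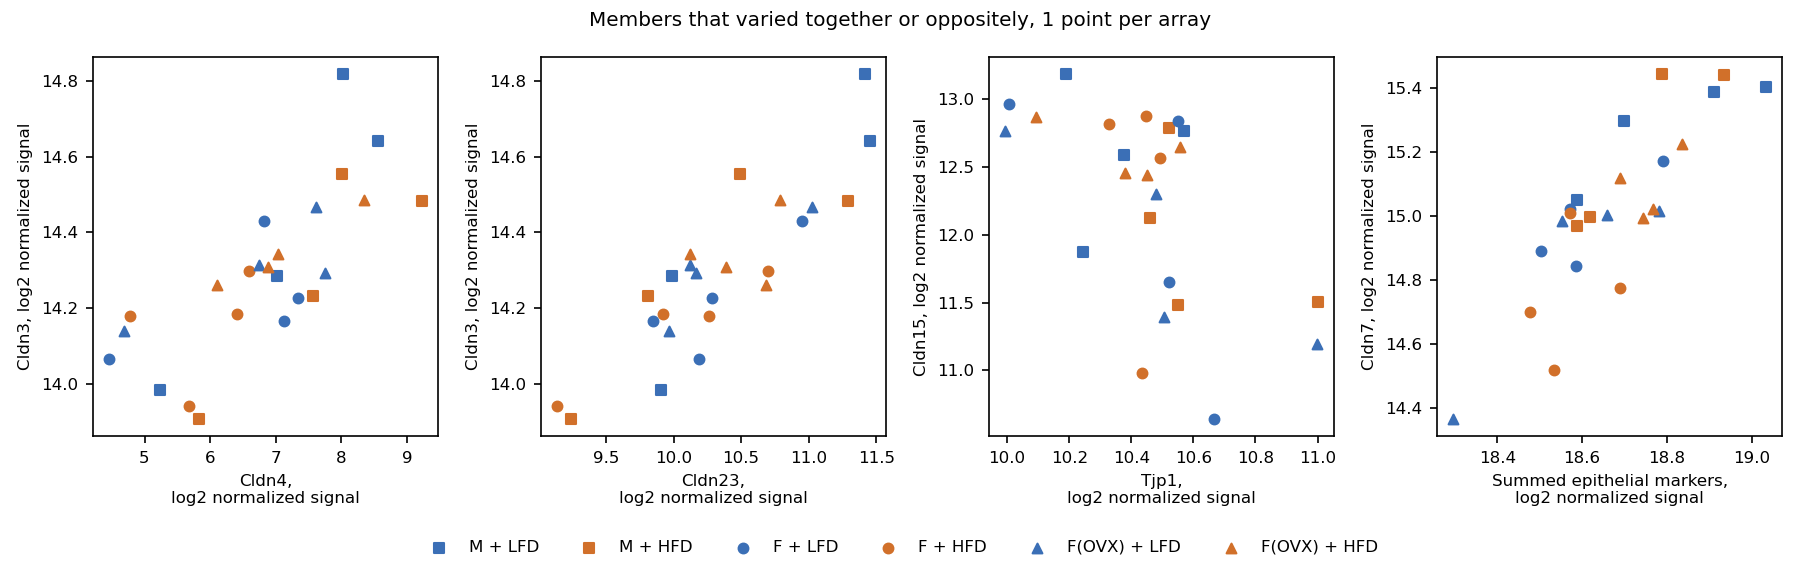
Log2 normalized signal of Cldn3 against Cldn4 and against Cldn23, of Cldn15 against Tjp1, and of Cldn7 against the summed signal of the epithelial markers, with 1 point per array (squares M, circles F, triangles F(OVX); blue LFD, orange HFD). The ranges of the 6 groups overlap in the panels of Cldn3 and Cldn15. In the Cldn7 panel M + LFD (15.05 to 15.40) lies above F + HFD (14.52 to 15.01). The r values of 0.75, 0.83, -0.60 and 0.81 are over 22 arrays, without M + LFD replicates 1 and 2.

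The genes most like the 4 most variable members were found by Pearson's r over the 24 arrays among up to 11879 genes well above background on all of them, given as a description without a test. Cldn4 was most like Slc2a1, the glucose transporter GLUT1 (r = 0.95 over 24 and 0.95 over 22 arrays), then Ccdc120 (0.90 and 0.89) and Lama3, a laminin chain (0.85 and 0.85). Cldn15 was most like Elapor1 (0.95 and 0.95), Spdef, a transcription factor of secretory epithelial cells (0.94 and 0.93), and Cgref1 (0.94 and 0.94). Cldn1 had lower values, with Cep135 at 0.80 and 0.78, Epc2 at 0.77 and 0.76 and Nr2f2 at 0.76 and 0.72. Cldn8 had Gon4l at 0.79 and 0.78, Trp53i11 at 0.77 and 0.72 and Zfp64 at 0.76 and 0.68. The points share array and signal level.

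Other junction genes were described by list. Beside the counts below, the shares of all genes called by diet in M, F and F(OVX) were 4.3%, 1.2% and 2.19%. For M against F on LFD and HFD they were 4.24% and 8.12%, and for F(OVX) against F 1.92% and 3.1%. For M minus F, F(OVX) minus F and M minus F(OVX) they were 2.95%, 1.52% and 6.16%. Of 15 further claudins with a probe, 3 were detected well enough to be tested, and 1 of these, Cldn14, was called in 5 comparisons. These share groups, so the calls are not separate results. Cldn14, a tightening claudin best known from the inner ear and kidney, measured 5.78, 5.97, 6.99 and 7.67 on M + LFD and 8.32, 9.03, 7.14 and 7.58 on M + HFD. On F(OVX) + LFD it measured 8.39, 9.39, 8.52 and 8.60 and on F(OVX) + HFD 8.17, 7.50, 7.31 and 8.63. It was higher on HFD in M (1.41, adjusted p = 0.800, exact permutation p = 0.0857) and lower on HFD in F(OVX) (-0.82, adjusted p = 0.9996, exact permutation p = 0.114). The difference between those, 2.23, was called too (adjusted p = 0.562). Cldn14 was also lower in M than F (-1.03, exact permutation p = 0.0857) and higher in F(OVX) than F (1.09, adjusted p = 0.9999, exact permutation p = 0.0286) on LFD. Without M + LFD replicates 1 and 2 the M diet difference was 0.68 and that against F was -0.30, neither of them called, and the difference of differences was 1.503, still called.

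Among 12 other membrane proteins of the junction, 11 were tested and 0 were called by diet in M, F or F(OVX). Igsf5 (JAM4) was higher in M than F on LFD (0.74, exact permutation p = 0.0857), which without M + LFD replicates 1 and 2 was 0.36. F11r (JAM-A) was higher in M than F on HFD (0.64, limma p = 0.00803, adjusted p = 0.255, exact permutation p = 0.0286), with M at 13.26, 13.002, 13.27 and 13.68 above F at 12.61, 12.40, 12.72 and 12.94. In that comparison 8.38% of all genes had groups that did not overlap. The F11r difference was 0.55, under the fold limit, without F + HFD replicate 2. Marveld3, a relative of occludin, had a diet difference in M that exceeded that in F(OVX) by 0.81 (adjusted p = 0.562), and Lsr, angulin-1 of tricellular junctions, by 0.85 (adjusted p = 0.664). Without M + LFD replicates 1 and 2 these were 0.88, still called, and 0.30. Of the plaque and polarity proteins, 20 or 21 of 22 were tested and 1 was called in any comparison: Magi2, a scaffold, was lower in F(OVX) than in F on HFD (-0.77, adjusted p = 0.621, exact permutation p = 0.0286). Among 12 regulators, 0 were called by diet in M, F or F(OVX).

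Adherens junctions and desmosomes, the adhesion complexes beside the tight junction, were described the same way. Of 10 tested adherens junction genes, Nectin1 was called for F(OVX) minus F (0.74), against 0.64, no longer called, without the 5 arrays that stood apart. Of 9 tested desmosome genes, Evpl (envoplakin) was higher on HFD in M (0.86, adjusted p = 0.800, exact permutation p = 0.0857), against 0.71, no longer called, without M + LFD replicates 1 and 2, and its diet difference in M exceeded that in F by 0.90, against 0.75, no longer called, without that pair of arrays. In F, the medians of the diet differences were -0.13 for adherens junction and -0.21 for desmosome genes, beside -0.12 for the members. In F(OVX) they were 0.17, 0.17 and 0.09. None of these genes passed an adjusted p of 0.05 by limma in a comparison.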

How the data were processed

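Colon RNA of 24 samples was measured on 1-color Agilent arrays with 62976 spots. The deposited files hold scanner intensity values, which per the file headers the authors' scanner software (Agilent Feature Extraction 11.0.1.1) had background-subtracted and detrended within each array, on a probe grid of the mm9 build, with no normalization between arrays. Control spots were removed, outlier spots set missing and spots of a probe averaged, leaving 56605 probes, of which 32994 were named through their accession in a RefSeq table (GRCm38.p6). Log2 processed signals were quantile-normalized over the 24 arrays, and each gene was represented by its brightest probe. A gene entered a comparison when its probe was well above background on a whole group of 4 arrays. Differences were tested with limma 3.58.1 (lmFit and eBayes, R 4.3.3, Benjamini-Hochberg), tested on simulated data, and called at the thresholds of the study's methods. Exact permutation tests used all 70 assignments of 4 against 4 arrays, or 4900 for a difference of diet effects, and relations used 100000 permutations, or 40320 for 8 arrays. All tests were two-sided. The number of arrays limits the precision. The methods name 5 animals per group and the labels hold 4 arrays per group with no animal identity, so p-values measure the spread between these arrays.

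All 10 members and every probe of them were named, with the called genes of the other junction lists (at most 3 per list and comparison, and leaving out 1 regulator), Hoxb13, Epcam, the markers of lists that stood apart, and the 3 genes most like each of the 4 widest-ranging members. Members and lists were chosen with earlier results of these data known. All main fits were unpaired, in F too, and the replicate number entered only as a block among the alternatives. Deviations of same-numbered LFD and HFD arrays correlated at 0.26 to 0.56 in F, -0.25 to 0.03 in M and -0.09 to 0.34 in F(OVX). Any pairing of the F arrays was inferred from these same data, and the F and F(OVX) values overlap. No label pairs the arrays, and the number is also the slide column, so pairing and position cannot be told apart. Alternatives were 75th-percentile scaling, normexp background correction (offset 50), both other filters on dim probes, the mean of all probes, the methods' t-test, the replicate block, leaving out each array, and leaving out arrays that stood apart. The call of that regulator is not reported here. The set of 5 arrays that stood apart, and all alternatives for the relations among members and for the second Cldn2 probe, were chosen after seeing the data.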

Additional observations from a re-analysis of the deposited data

Results flagged for a closer look

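Of 60 sets of 4 arrays (10 members in 6 groups), 5 held an array far from the other 3 by Dixon's criterion, which chance alone would mark in about 1 of 20. Cldn1 was 3.57 on F(OVX) + HFD replicate 2, where it was not well above background, with the next array at 5.94. Cldn7 was 14.37 on F(OVX) + LFD replicate 3, the array of lowest signal, with the next at 14.98. Cldn15 was 10.98 on F + HFD replicate 3, with the next at 12.57. Ocln was 9.36 on F + LFD replicate 1, with the next at 8.87, and Tjp1 was 11.002 on M + HFD replicate 4, with the next at 10.55.

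Of 30 differences between diet effects, 2 passed a test of the difference itself by exact permutation or limma. The diet difference of Cldn7 was 0.48 higher in F(OVX) than in F (exact permutation p = 0.0200), and was 0.27 without the 5 arrays that stood apart. That of Cldn15 in M minus F(OVX) was -1.32 (exact permutation p = 0.0327), and was -1.53 without them. Of these, 1 passed limma's unadjusted p under 0.05 (Cldn7) and the other only the permutation, beside 3.52%, 2.12% and 7.42% of all genes under that limma p for M minus F, F(OVX) minus F and M minus F(OVX). Neither passed an adjusted p of 0.05 by limma.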

How the results depend on the processing

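None of the 3 called differences changed sign under an alternative. Of the 97 uncalled differences, 9 changed sign with 75th-percentile scaling, 3 with the mean of all probes, 25 without the 5 arrays that stood apart and 0 with normexp, and so did 15 of the 39 recomputed without M + LFD replicates 1 and 2 and 78 of 1016 values without single arrays. The numbers of members called changed as follows, from 0 in each diet comparison and each difference of diet effects and 1 in each of M against F on LFD, M against F on HFD and F(OVX) against F on HFD. With 75th-percentile scaling 1 was called by diet in M, 0 in M against F on LFD and 1 in M minus F(OVX). Normexp correction, no filter, and leaving out M + LFD replicates 1 and 2 together each gave 0 in M against F on LFD, and no filter gave 0 in F(OVX) against F on HFD. The methods' t-test and the filter to genes well above background on all 24 arrays, which drops Cldn1 and Cldn4, gave 0 in all 3. The mean of all probes gave 1 in M minus F(OVX). Without the 5 arrays that stood apart, 2 were called by diet in F(OVX) (Cldn8 and Cldn15), 2 in M minus F(OVX) (Ocln and Tjp1), and 0 in the 3 others. Leaving out single arrays gave 0 to 2 by diet in M, 0 to 1 in F and 0 to 2 in F(OVX), 0 to 1 in M against F on LFD, 0 to 2 in M against F and in F(OVX) against F on HFD, 0 to 1 in M minus F and 0 to 3 in M minus F(OVX). F(OVX) against F on LFD and F(OVX) minus F stayed at 0 throughout.

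With the replicate number as a block, 2 members were called by diet in M (Cldn1 and Cldn15), 1 in F(OVX) (Cldn8) and 1 in M minus F(OVX) (Cldn15). Same-numbered M or F(OVX) arrays share a number and the slide column that goes with it, and no known pairing. In F, where same-numbered arrays correlated though no label pairs them, the block changed no call of a member. Pairs of members that passed numbered 14 over 24 arrays, 12 with 75th-percentile scaling, 12 with normexp, 11 without M + LFD replicates 1 and 2 and 8 without the 5 arrays. Why these counts move was not tested.

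Over all genes, the number called by diet ran from 489 (the methods' t-test) to 1217 (no filter) beside 882 in M, from 80 (normexp) to 627 (no filter) beside 264 in F, and from 209 (t-test) to 843 (no filter) beside 421 in F(OVX). It ran from 401 (normexp) to 1671 (no filter) beside 942 and from 905 to 2458 beside 1653 for M against F on LFD and HFD. It ran from 160 to 829 beside 424 and from 239 to 1213 beside 612 for F(OVX) against F. For M minus F, F(OVX) minus F and M minus F(OVX) it ran from 467 to 1150 beside 661, from 153 to 827 beside 340 and from 1025 to 1853 beside 1378. Low signal limits Cldn1 and Cldn4, which were not above background on every array.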
